A study of Mus musculus with 4 samples.

Results

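The genes described are 37 mitosis and spindle genes, chosen by symbol as G2/M kinases and cyclins, spindle checkpoint, kinetochore, kinesin, spindle and cytokinesis genes, out of 24391 genes in each count table. All 37 had a row, and all 37 were among the 16001 genes that passed the count filter. They were followed in mouse lung tumours of genotype K-RasLSL-G12D, labelled K-Ras, in which a lox-stop-lox cassette keeps oncogenic K-Ras silent until Cre removes it, and of genotype K-RasLSL-G12D;Mll4fl/fl, labelled K-Ras Mll4-/-, in which floxed Mll4 was to be lost as well. Each group held 2 samples, so every sample carried the activatable K-Ras allele and the groups differed in Mll4 by label. The labels give neither the Cre source nor the age or number of the mice, and the p-values therefore measure only the spread between these samples, which may be technical. Tumours were dissociated and cells bearing CD45, the pan-leukocyte antigen, were removed before total RNA was prepared.

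Mitosis is driven by the kinase CDK1 bound to cyclin A or B, which is switched on by CDC25 phosphatases and acts with the Polo and Aurora kinases to build the spindle. Kinetochores attach chromosomes to spindle microtubules, and unattached kinetochores hold the checkpoint that keeps CDC20 from activating the anaphase-promoting complex (APC/C). Once the APC/C is active, cyclin B is destroyed, the chromosomes separate and the cell divides. Kinesins act on the spindle and actin regulators in the division of the cell. Most of these transcripts are made mainly in late S, G2 and M phase, so in bulk tissue they are widely used as a readout of dividing cells. In bulk RNA, fewer cells of a type and less RNA per cell cannot be told apart.

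Between 26683033 and 36677987 reads per sample fell in genes, and 3 reads corresponded to between 0.0818 and 0.112 CPM (reads scaled to a common library size). Kmt2d, the gene of the targeted methyltransferase Mll4, was at 395 and 526 CPM in the K-Ras samples and at 367 and 317 CPM in the K-Ras Mll4-/- samples, for which the log2 fold change was -0.43 (SE 0.21, adjusted p = 0.302 by the quasi-likelihood test of edgeR). That value was -0.10 with offsets for GC content and transcript length and -0.22 without K-Ras replicate 2. Counts per gene do not resolve a lost exon, so the loss of Mll4 rests on the labels. K-Ras replicate 2 held far more airway transcripts than the other samples: 9 ciliated-cell markers summed to 976 CPM there, against 174 CPM in K-Ras replicate 1 and 94.5 and 102 CPM in the K-Ras Mll4-/- samples.

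The mitosis and spindle genes were higher in both K-Ras Mll4-/- samples than in both K-Ras samples in 37 of 37 cases, against 29.9% of all tested genes, and lower in both in 0 cases, against 28.5%. With total count scaling the number was also 37. Summed over the genes, the level was 390 and 400 CPM in the K-Ras samples and 753 and 831 CPM in the K-Ras Mll4-/- samples. Their share of gene-assigned reads was 0.0410% and 0.0394% in K-Ras and 0.0741% and 0.0815% in K-Ras Mll4-/-, from 11927 to 26789 reads per sample. The median log2 fold change, K-Ras Mll4-/- minus K-Ras, was 1.11 over the 37 genes, a 2.15-fold difference, and -0.01 over all tested genes. Single genes ranged from 0.17 for Spc25 to 1.92 for Cdk1, with quartiles of 0.90 and 1.37, and 24 of the 37 reached a log2 fold change of 1, against 5.03% of all tested genes.

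No single gene of the group passed the threshold of the edgeR quasi-likelihood test as fitted on the 2 groups. At a Benjamini-Hochberg adjusted p under 0.05, this test called 0 of the 37 (0.0375% of all tested genes, 6 in all), and their adjusted p ran from 0.135 to 0.702. At an unadjusted p under 0.05 the same test gave 30 of the 37 as higher, against 11.4% of all tested genes, and 0 as lower, against 10.4%. DESeq2, which shares information on spread between genes differently, called 24 of the 37, all higher, against 5.23% of genes called higher across the table and 5.18% called lower. limma-voom called 0 of the 37 (0% of all genes) and gave 31 an unadjusted p under 0.05, against 11.5%. Single genes are therefore given below as values with their errors, and "called" refers to DESeq2 alone. Since the quasi-likelihood test and limma-voom called 0 of the 37, a call is a weak label.

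**Figure D1:**
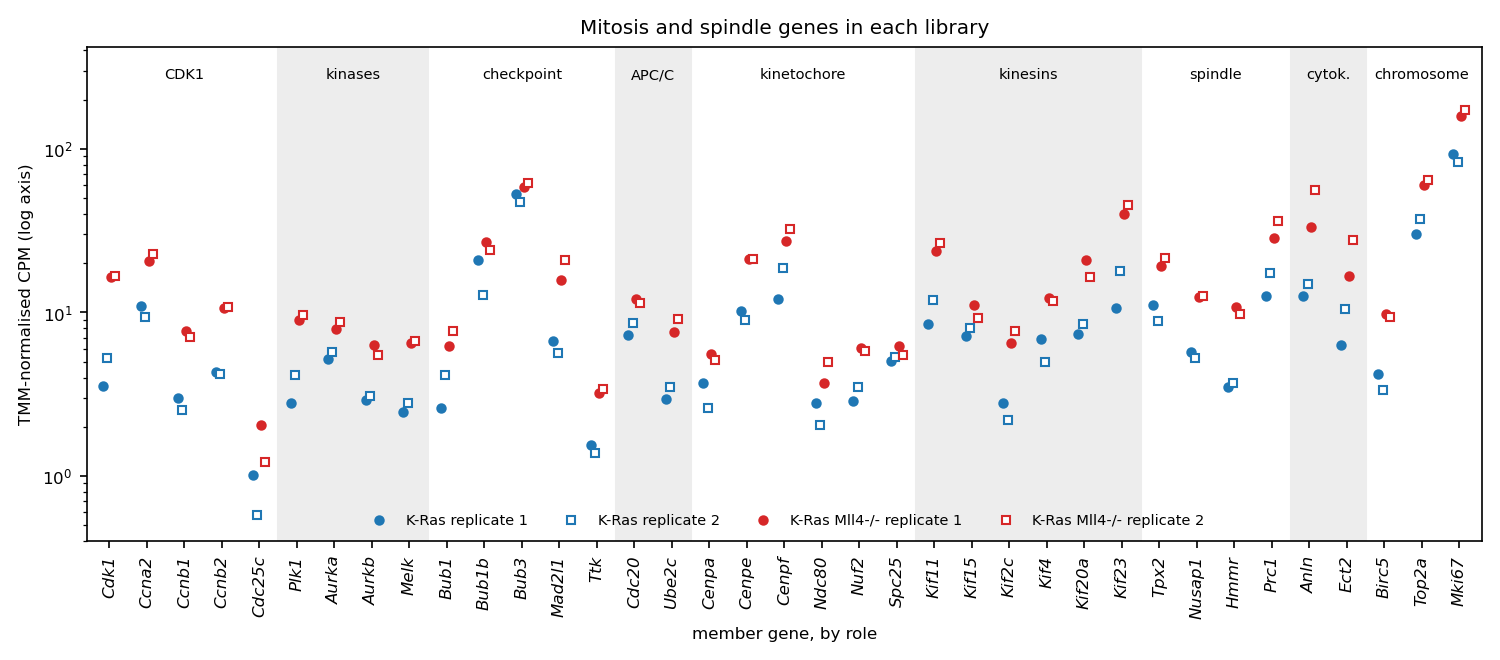
Level of each of the 37 mitosis and spindle genes in each library, as TMM-normalised CPM on a log axis, with genes ordered by role. Blue marks are the 2 K-Ras samples and red marks the 2 K-Ras Mll4-/- samples, and for every gene both red marks lie above both blue marks, by little for Spc25 and by a wide margin for Cdk1, Mad2l1 and Hmmr.

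Promoter sequence was examined as a property of the listed genes, which were chosen by symbol, and it does not depend on the samples. Many G2/M genes are known to share a cell cycle homology region (CHR), with the letters TTTGAA near the start of transcription and often a CCAAT box upstream, which are known as sites of the MuvB and NF-Y complexes. RefSeq promoters (GRCm38.p6, from 250 bases before to 50 bases after the first listed start) were present for 32 of the 37 genes, the exceptions being Ccna2, Cdc25c, Aurkb, Kif20a and Tpx2. TTTGAA on either strand was found in 24 of the 32 promoters (75%), against 18.1% of 27025 genes in the table and 12.5% of those that were tested. Among 95 promoters of other mitosis genes, from the lists described further on, 40% held it. CCAAT on either strand was found in 23 of 32 (71.9%), against 37.9% and 38% of the same sets, and both motifs in 20 (62.5%), against 7.12% and 5.03%. The other mitosis genes lay between, with CCAAT in 56.8% and both motifs in 29.5%. Most matches to TTTGAA lay at the start itself: 22 of 32 promoters held one within 50 bases of it, against 28 of the 95 promoters of other mitosis genes and 4.92% of all genes, a window chosen after the positions were seen.

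The stretches printed here run from 100 bases before the start to 30 bases after it, 5′ to 3′ on the gene's strand. Shown are the gene with the largest fold change in each role among those with TTTGAA inside this stretch, then Mad2l1, the gene with the largest fold change among those with neither motif. The role of Plk1, Aurka, Aurkb and Melk has no gene here. Plk1 and Aurka hold TTTGAA beyond the stretch, Melk holds none and Aurkb had no promoter entry. Capitals mark TTTGAA and CCAAT or their reverse complements, TTCAAA and ATTGG. The files' own build is mm9 per the submitters' processing notes, so these GRCm38.p6 positions are not positions of counted reads. The positions are chr10:69352883-69353012 (minus strand) for Cdk1, chr9:83834589-83834718 (plus) for Ttk, chr2:164769829-164769958 (plus) for Ube2c, chr1:189688057-189688186 (minus) for Cenpf, chr9:61946770-61946899 (minus) for Kif23, chr11:40733408-40733537 (minus) for Hmmr, chr9:22389177-22389306 (minus) for Anln, chr7:135716350-135716479 (minus) for Mki67 and chr6:66535121-66535250 (plus) for Mad2l1.
Cdk1: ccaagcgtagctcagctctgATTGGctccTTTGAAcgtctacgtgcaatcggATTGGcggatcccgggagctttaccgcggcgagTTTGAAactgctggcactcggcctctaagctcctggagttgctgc
Ttk: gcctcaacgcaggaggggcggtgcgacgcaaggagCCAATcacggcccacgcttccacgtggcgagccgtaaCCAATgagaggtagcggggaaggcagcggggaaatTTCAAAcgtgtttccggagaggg
Ube2c: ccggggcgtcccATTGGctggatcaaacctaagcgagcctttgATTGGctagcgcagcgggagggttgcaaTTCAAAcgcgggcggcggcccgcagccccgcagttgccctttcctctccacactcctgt
Cenpf: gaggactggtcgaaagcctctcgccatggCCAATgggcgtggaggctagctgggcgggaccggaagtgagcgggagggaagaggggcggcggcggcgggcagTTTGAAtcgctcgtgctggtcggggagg
Kif23: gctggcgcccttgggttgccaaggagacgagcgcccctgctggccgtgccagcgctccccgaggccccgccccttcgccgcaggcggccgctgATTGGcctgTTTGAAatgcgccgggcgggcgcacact
Hmmr: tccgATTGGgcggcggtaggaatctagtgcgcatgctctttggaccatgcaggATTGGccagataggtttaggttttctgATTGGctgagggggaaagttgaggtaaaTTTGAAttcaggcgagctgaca
Anln: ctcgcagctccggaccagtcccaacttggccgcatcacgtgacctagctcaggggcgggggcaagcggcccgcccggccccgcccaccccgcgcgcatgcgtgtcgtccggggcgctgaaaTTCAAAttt
Mki67: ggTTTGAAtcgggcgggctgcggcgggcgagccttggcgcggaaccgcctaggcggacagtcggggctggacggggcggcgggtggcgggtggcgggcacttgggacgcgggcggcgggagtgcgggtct
Mad2l1: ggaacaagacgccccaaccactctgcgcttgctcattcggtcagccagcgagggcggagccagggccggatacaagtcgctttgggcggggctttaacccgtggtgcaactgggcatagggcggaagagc

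Counting the first transcribed base as 1, the TTTGAA match nearest to the start began at -15 in Cdk1, -29 in Ube2c, 3 in Cenpf and Kif23, 8 in Ttk, 9 in Hmmr, 22 in Anln and -98 in Mki67. The motif did not sort the genes by their difference between the groups. The median log2 fold change was 1.06 over the 24 genes with TTTGAA and 1.25 over the 8 without it, with ranges of 0.17 to 1.92 and 0.90 to 1.57. Both Spc25 and Bub3, the genes with the smallest differences, hold TTTGAA and CCAAT in the promoter, and Mad2l1 and Nusap1 hold neither. These matches are descriptions of letters in a window and say nothing of which factor bound there in the tumours.

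CDK1 and the proteins that activate it were higher in K-Ras Mll4-/- tumours by 1.03 to 1.92 on the log2 scale. Cdk1, the mitotic kinase itself, was at 3.53 and 5.26 CPM in the K-Ras samples and at 16.5 and 16.8 CPM in the K-Ras Mll4-/- samples. The latter samples nearly coincide, and the log2 fold change of 1.92 (SE 0.27, adjusted p = 0.135 by edgeR, DESeq2 adjusted p = 2.53e-06) was the largest of the 37. Ccnb1, cyclin B1, was at 3.01 and 2.52 CPM in K-Ras and 7.66 and 7.11 CPM in K-Ras Mll4-/-. Ccnb2, cyclin B2, had the tightest replicates, with 4.35 and 4.23 CPM against 10.7 and 10.7 CPM. Both B-type cyclins were called by DESeq2, with log2 fold changes of 1.42 (SE 0.26) and 1.32 (SE 0.21) by edgeR. Ccna2, cyclin A2, which acts earlier, in S and G2, was at 10.9 and 9.38 CPM against 20.7 and 22.8 CPM and was also called. Its exons overlap those of Exosc9 on the opposite strand, and the strand setting of the counts is not given in the sources used here. Cdc25c, a phosphatase that removes the inhibitory phosphates of CDK1, had the fewest reads, 21 to 54 per sample, and was at 1.01 and 0.581 CPM against 2.06 and 1.21 CPM. Its replicates differed 1.74-fold and 1.70-fold, and its log2 fold change of 1.03 (SE 0.51, adjusted p = 0.309 by edgeR) was not called.

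Among the other mitotic kinases, the largest difference was that of Plk1, the Polo kinase of mitotic entry and spindle assembly, at 2.81 and 4.12 CPM in K-Ras and 8.99 and 9.68 CPM in K-Ras Mll4-/-. Its log2 fold change was 1.43 (SE 0.29, adjusted p = 0.153 by edgeR), and DESeq2 called it. Melk, a kinase of the AMPK-related family whose transcript follows proliferation, stood at 2.45 and 2.79 CPM against 6.47 and 6.67 CPM and was called too. The Aurora kinases were not called. Aurkb, the Aurora kinase of the centromere and midzone, was at 2.91 and 3.07 CPM against 6.32 and 5.46 CPM, a log2 fold change of 0.98 (SE 0.26). Aurka, the Aurora kinase of the spindle poles, was at 5.20 and 5.73 CPM against 7.96 and 8.78 CPM. Its groups do not overlap, yet the gap is narrow, with a log2 fold change of 0.61 (SE 0.23, adjusted p = 0.221 by edgeR).

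Spindle checkpoint genes ran from nearly level to almost 3-fold higher. Mad2l1, whose protein MAD2 binds and restrains CDC20, was at 6.70 and 5.62 CPM in K-Ras and 15.8 and 20.8 CPM in K-Ras Mll4-/-. With a log2 fold change of 1.57 (SE 0.24, adjusted p = 0.136 by edgeR) it was the only checkpoint gene called by DESeq2. Ttk, the kinase MPS1 that starts checkpoint signalling, was at 1.54 and 1.38 CPM against 3.24 and 3.41 CPM, and Bub1, a kinase at the kinetochore, at 2.62 and 4.15 CPM against 6.21 and 7.69 CPM. Neither was called, although their log2 fold changes were 1.19 (SE 0.31) and 1.04 (SE 0.34). Bub1b, which encodes the checkpoint protein BUBR1, was at 20.9 and 12.9 CPM against 27.2 and 24.0 CPM. The K-Ras samples differed 1.62-fold from each other here, more than the 1.52-fold difference between the groups. Bub3, the WD-repeat partner of BUB1 and BUBR1, was abundant in all samples, at 52.7 and 47.2 CPM against 58.2 and 62.1 CPM. Its log2 fold change was 0.27 (SE 0.13, adjusted p = 0.297 by edgeR).

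The APC/C activator and ubiquitin-conjugating enzyme in the set differed in size of change. Ube2c, the enzyme that supplies ubiquitin to the APC/C, was at 2.94 and 3.51 CPM in K-Ras and 7.58 and 9.18 CPM in K-Ras Mll4-/-, a log2 fold change of 1.37 (SE 0.27, adjusted p = 0.147 by edgeR), and was called by DESeq2. Cdc20, the activator held by the checkpoint, was at 7.29 and 8.66 CPM against 12.1 and 11.4 CPM, a log2 fold change of 0.56 (SE 0.21, adjusted p = 0.225 by edgeR), and was not. Exons of Ube2c overlap Tnnc2 and those of Cdc20 overlap Elovl1, each on the opposite strand. Whether the difference between Ube2c and Cdc20 exceeds chance was not tested.

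Kinetochore genes had a median log2 fold change of 0.87, and 2 of the 6 were called by DESeq2. Cenpe, a kinesin that carries chromosomes to the spindle equator, was at 10.3 and 8.99 CPM in K-Ras and at 21.3 and 21.3 CPM in K-Ras Mll4-/-, a log2 fold change of 1.14 (SE 0.17, adjusted p = 0.136 by edgeR). Cenpf, a large outer kinetochore protein, was at 12.1 and 18.8 CPM against 27.2 and 32.2 CPM. These were the called genes, Cenpf with a log2 fold change of 0.94 (SE 0.27). Cenpa, the histone H3 variant that marks centromeres, was at 3.73 and 2.60 CPM against 5.56 and 5.09 CPM. DESeq2 called neither Cenpa, whose log2 fold change was 0.75 (SE 0.31), nor the 3 listed subunits of the microtubule-binding NDC80 complex. Ndc80 was at 2.81 and 2.05 CPM against 3.69 and 4.96 CPM, and Nuf2 at 2.88 and 3.49 CPM against 6.09 and 5.83 CPM. Spc25 was at 5.04 and 5.37 CPM against 6.21 and 5.52 CPM, so that the groups were separated by less than the spread of the K-Ras Mll4-/- samples. Its log2 fold change of 0.17 (SE 0.24, adjusted p = 0.702 by edgeR) was the smallest of the 37 and turned to -0.024 with offsets for GC content and transcript length.

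Kinesins of the spindle followed, with 5 of 6 called by DESeq2. Kif23, the motor of centralspindlin at the spindle midzone, was at 10.6 and 18.0 CPM in K-Ras and 40.2 and 45.6 CPM in K-Ras Mll4-/-. The log2 fold change was 1.58 (SE 0.29, adjusted p = 0.147 by edgeR), and the K-Ras samples differed 1.69-fold. Kif2c, which takes apart wrongly attached microtubules, was at 2.78 and 2.19 CPM against 6.51 and 7.69 CPM. Kif11, the motor that pushes the spindle poles apart, was at 8.50 and 11.8 CPM against 23.6 and 26.7 CPM. Kif20a, which moves the chromosomal passenger complex to the midzone, was at 7.36 and 8.50 CPM against 20.9 and 16.4 CPM, and its exons overlap Cdc23 on the opposite strand. Kif4, a chromosome-bound motor, was at 6.90 and 4.95 CPM against 12.3 and 11.7 CPM, with exons that overlap Pdzd11. The log2 fold changes of Kif2c, Kif11, Kif20a and Kif4 were 1.52, 1.30, 1.23 and 1.02, with SEs of 0.22 to 0.29. Apart from these stood Kif15, a motor that can stand in for KIF11, at 7.19 and 8.02 CPM against 11.0 and 9.28 CPM. It had a log2 fold change of 0.42 (SE 0.22, adjusted p = 0.328 by edgeR) and was not called.

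All 4 spindle microtubule genes were called by DESeq2. Hmmr, a spindle-pole protein also known as a hyaluronan receptor, was at 3.50 and 3.71 CPM in K-Ras and 10.8 and 9.74 CPM in K-Ras Mll4-/-, a log2 fold change of 1.51 (SE 0.23, adjusted p = 0.136 by edgeR). Nusap1, which bundles microtubules near chromosomes, was at 5.76 and 5.29 CPM against 12.4 and 12.5 CPM. The log2 fold change of Nusap1 was 1.17 (SE 0.20), and its exons overlap Oip5. Prc1, which bundles antiparallel microtubules at the midzone, was at 12.6 and 17.3 CPM against 28.4 and 36.1 CPM, and its exons overlap Rccd1. Tpx2, the activator of Aurora A, was at 11.1 and 8.83 CPM against 19.2 and 21.6 CPM. The smallest log2 fold change of these 4 was that of Tpx2, 1.04 (SE 0.20, adjusted p = 0.147 by edgeR).

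The cytokinesis genes combined a high fold change with a wide spread in the K-Ras Mll4-/- samples. Anln, anillin, the scaffold of the contractile ring, was at 12.7 and 15.0 CPM in K-Ras and 33.4 and 56.4 CPM in K-Ras Mll4-/-. The log2 fold change was 1.70 (SE 0.30, adjusted p = 0.147 by edgeR), second to Cdk1. Ect2, the exchange factor that activates RhoA at the cell equator, was at 6.31 and 10.5 CPM against 16.8 and 27.7 CPM, a log2 fold change of 1.4 (SE 0.38, adjusted p = 0.178 by edgeR). Replicates of Anln differed 1.69-fold within K-Ras Mll4-/- and those of Ect2 1.65-fold, where the median gene of the 37 differed 1.11-fold. DESeq2 called both genes. Anln and Ect2 also act outside mitosis in epithelial cells, at junctions and in the actin cortex.

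Of the chromosome proteins, all 3 were called by DESeq2. Mki67, the source of the Ki-67 antigen used to count cycling cells, was at 92.8 and 82.8 CPM in K-Ras and at 160 and 173 CPM in K-Ras Mll4-/-. The replicates of each group were close, and the log2 fold change was 0.92 (SE 0.14). Top2a, the topoisomerase that untangles sister chromatids, was at 30.2 and 37.5 CPM against 59.9 and 64.4 CPM, a log2 fold change of 0.88 (SE 0.16, adjusted p = 0.147 by edgeR). Birc5, survivin, a subunit of the chromosomal passenger complex, was at 4.22 and 3.35 CPM against 9.83 and 9.37 CPM, a log2 fold change of 1.34 (SE 0.25, adjusted p = 0.147 by edgeR).

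**Figure D2:**
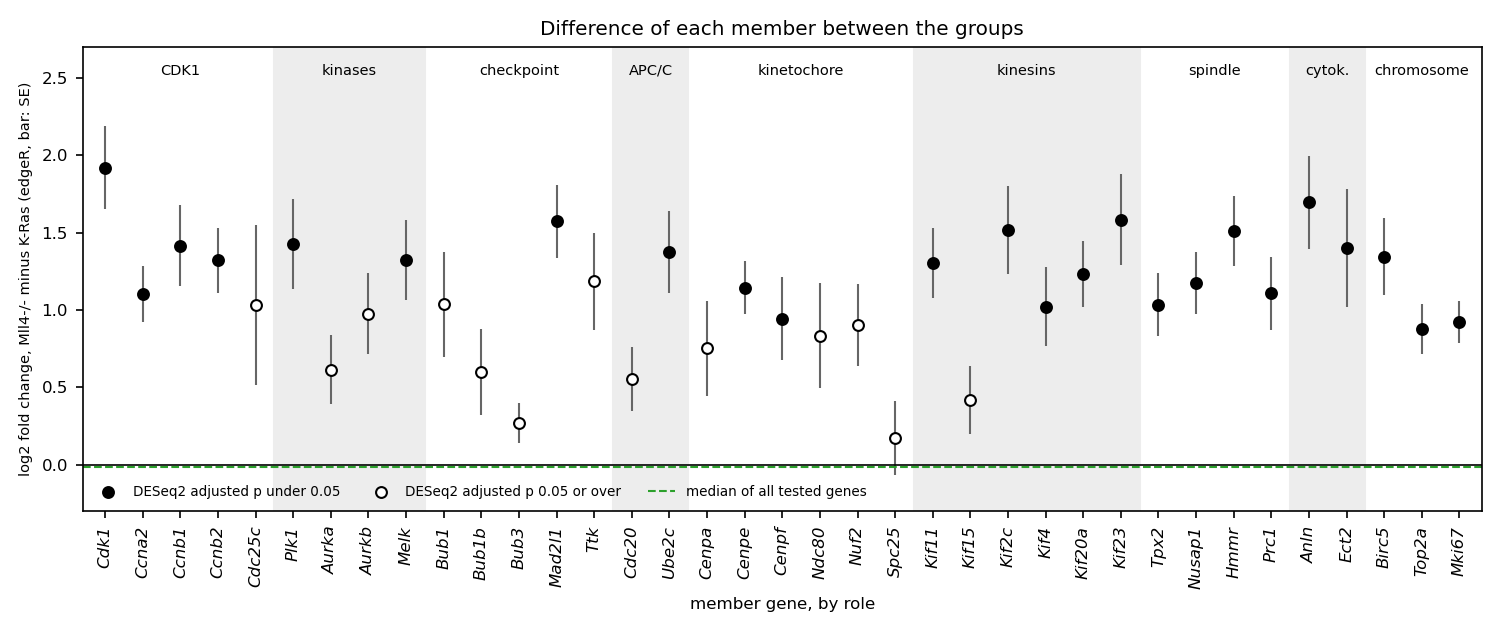
Log2 fold change, K-Ras Mll4-/- minus K-Ras, of each gene from the edgeR fit, with bars of 1 SE, filled where DESeq2 gave an adjusted p under 0.05. All 37 points lie above 0 and above the median of all tested genes (-0.01, dashed), and the open points are the 13 genes not called by DESeq2, Spc25 and Bub3 lowest among them.

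Compared per kilobase of the annotated principal transcript, which makes levels of different genes comparable, the order of the genes was similar at its ends in both groups. Bub3 was highest, at 22.5 CPM per kb in K-Ras and 27.1 in K-Ras Mll4-/-, followed by Mki67 at 8.73 and 16.6 CPM per kb. Cdc25c was lowest in both groups, at 0.410 and 0.840 CPM per kb, with Ttk next at 0.509 and 1.16 CPM per kb. Cdk1 stood at rank 30 of 37 in K-Ras and at rank 21 in K-Ras Mll4-/-, and Kif23 at ranks 8 and 3. Spc25 went the other way, from rank 7 to rank 16. Cdk1 and Kif23 are among the genes with the largest fold changes and Spc25 has the smallest, so these shifts follow from that. Neighbours in the order often differed by less than their replicates: in K-Ras, Spc25 (4.22 and 4.50 CPM per kb) and Kif23 (3.13 and 5.29 CPM per kb) overlap. The lengths come from GENCODE M21 and may differ from the transcripts counted, most for Mad2l1 and Cdk1, whose annotated principal transcripts of 7557 and 4375 bases are long for their proteins.

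Within each library the mix of transcripts was read against Mki67, without scaling between libraries. Per 100 reads of Mki67 there were 3.81 and 6.35 reads of Cdk1 in the K-Ras samples and 10.3 and 9.69 in the K-Ras Mll4-/- samples. Spc25 gave 5.43 and 6.48 reads per 100 of Mki67 in K-Ras against 3.88 and 3.19. These genes have the largest and the smallest fold change of the 37, so opposite directions relative to Mki67 follow from that choice and are a description only. For Kif23 the ratio was 11.5 and 21.7 in K-Ras against 25.2 and 26.3, and for Anln 13.7 and 18.1 against 20.9 and 32.6, without overlap. Anln and Kif23 rank 2 and 3 of the 37 by log2 fold change, at 1.70 and 1.58 against 0.92 for Mki67. Their higher ratios likewise follow from that and are a description only. For Top2a the ratio was 32.5 and 45.3 against 37.5 and 37.2, so the groups overlapped.

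Other genes of mitosis were taken from 5 lists of 116 genes in all, each with a count in the table and each tested. The edgeR quasi-likelihood test called 0 of the 116, with 39 (33.6%) higher at an unadjusted p under 0.05, against 11.4% of all tested genes, and 1 lower, against 10.4%. DESeq2 called 15 (12.9%), all higher, against 5.23%, and limma-voom called 0. The median log2 fold change of the 116 was 0.33.

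Genes of the spindle, centrosome and cytokinesis apart from the 37 had a median of 0.69 over 21 genes. At an unadjusted p under 0.05 by edgeR, 11 of them (52.4%) were higher, against 11.4% of all tested genes, and 0 lower. Cep55, which recruits the abscission machinery to the midbody, was at 3.66 and 4.37 CPM in K-Ras against 12.2 and 12.3 CPM in K-Ras Mll4-/-, a log2 fold change of 1.61 (SE 0.22). Racgap1, the partner of KIF23 in centralspindlin, was at 13.4 and 14.0 CPM against 28.4 and 26.4 CPM, a log2 fold change of 1.00 (SE 0.15). Both were called by DESeq2. Nek2, a centrosome kinase, had the lowest value in that list, a log2 fold change of -0.38 (SE 0.54), with 20.3 CPM in K-Ras replicate 2 against 6.93 CPM in K-Ras replicate 1 and 9.48 and 11.4 CPM in the other samples. Its direction rested on that sample, and without K-Ras replicate 2 the log2 fold change of Nek2 was 0.58.

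The other kinetochore and centromere genes had a median of 0.56 over 34 genes. At an unadjusted p under 0.05 by edgeR, 12 of them (35.3%) were higher, against 11.4% of all tested genes, and 0 lower. Sgol2a, shugoshin 2, a protector of centromeric cohesion, was at 5.27 and 7.22 CPM in K-Ras and 23.2 and 41.5 CPM in K-Ras Mll4-/-, and its log2 fold change of 2.37 (SE 0.37) exceeded that of every one of the 37. Cdca8, borealin of the passenger complex, was at 2.09 and 2.79 CPM against 5.45 and 6.27 CPM. Nsl1, a subunit of the MIS12 complex, was lowest in the list, with a log2 fold change of -0.26 (SE 0.38) that turned to 0.079 without K-Ras replicate 1.

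Condensin and cohesin genes had a median of 0.28 over 20 genes. At an unadjusted p under 0.05 by edgeR, 8 (40%) were higher and 1 (5%) lower, against 11.4% and 10.4% of all tested genes. Esco2, the acetyltransferase that establishes cohesion in S phase, was at 2.78 and 2.55 CPM against 11.8 and 13.0 CPM, a log2 fold change of 2.22 (SE 0.23, adjusted p = 0.116 by edgeR, DESeq2 adjusted p = 2.67e-09). Smc2, a core ATPase of condensin, was at 24.0 and 23.5 CPM against 38.6 and 38.5 CPM. The lower gene was Mau2, which helps load cohesin, at 146 and 159 CPM against 120 and 116 CPM.

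APC/C subunits and mitotic exit factors had a median of 0.12 over 17 genes, and 1 of them (5.88%), Ube2s, was higher at an unadjusted p under 0.05, a share below the 11.4% of all tested genes. Ube2s, which extends ubiquitin chains on APC/C targets, was at 17.1 and 21.1 CPM against 25.6 and 26.9 CPM. Fzr1, the late APC/C activator CDH1, was at 29.9 and 29.6 CPM against 37.6 and 33.7 CPM, and Anapc1, the largest subunit, at 188 and 212 CPM against 177 and 188 CPM. DESeq2 called none of these 17 genes.

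The list of G2/M regulators and of MuvB, B-Myb, FoxM1 and NF-Y factors had a median of 0.25 over 24 genes. At an unadjusted p under 0.05 by edgeR, 7 (29.2%) were higher and 0 lower, against 11.4% and 10.4% of all tested genes. Foxm1, the transcription factor that drives many G2/M promoters, was at 7.16 and 7.14 CPM in K-Ras and 11.2 and 16.6 CPM in K-Ras Mll4-/-, a log2 fold change of 0.96 (SE 0.26, DESeq2 adjusted p = 0.0586). Mybl2, B-Myb, was at 3.17 and 3.15 CPM against 4.08 and 6.92 CPM, a log2 fold change of 0.80 (SE 0.36, DESeq2 adjusted p = 0.327). Gtse1, a microtubule-associated protein of G2, was at 3.89 and 4.34 CPM against 13.1 and 10.7 CPM, and Ccnf, cyclin F, at 5.0 and 4.79 CPM against 11.2 and 17.2 CPM. DESeq2 called Gtse1 and Ccnf. Wee1, the kinase that holds CDK1 inactive, was lowest in the list, at 14.6 and 26.0 CPM against 13.6 and 12.8 CPM, with a log2 fold change of -0.62 (SE 0.32, DESeq2 adjusted p = 0.329) that shrank to -0.16 without K-Ras replicate 2.

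**Figure D3:**
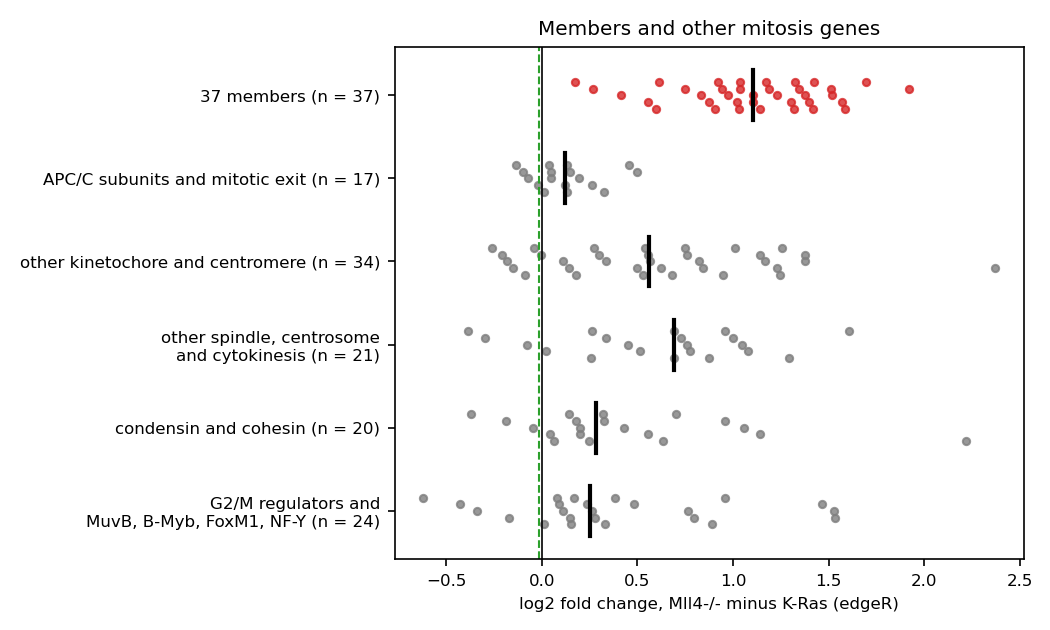
Log2 fold change, K-Ras Mll4-/- minus K-Ras (x axis), of the 37 genes (red) and of 116 other mitosis genes in 5 lists (grey), 1 point per gene, with the median of each list as a black bar and the median of all tested genes as a dashed line. The medians run from 1.11 for the 37 genes to 0.12 for APC/C subunits and mitotic exit factors.

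Markers of the cell types a lung tumour can hold were read from 10 lists. Epithelial markers moved with the mitosis genes: the 5 genes summed to 817 and 1339 CPM in K-Ras and to 2806 and 2860 CPM in K-Ras Mll4-/-. By edgeR 4 of 5 were higher at an unadjusted p under 0.05, against 11.4% of all tested genes. Epcam, the epithelial adhesion molecule, was at 101 and 126 CPM against 182 and 233 CPM, while Nkx2-1, the lung lineage factor, was at 45.7 and 62.7 CPM against 47.8 and 64.9 CPM. Endothelial markers moved the opposite way, from 7558 and 7360 CPM to 4810 and 3758 CPM. At the same threshold 8 of 10 were lower, against 10.4% of all tested genes. Fibroblast markers summed to 2636 and 1208 CPM in K-Ras and to 927 and 931 CPM in K-Ras Mll4-/-, with 3 of 9 lower at that threshold. In 7 of 9 both K-Ras Mll4-/- samples lay below both K-Ras samples, against 28.5% of all tested genes. Ciliated markers were lower at that threshold in 9 of 9 cases, against 10.4% of all tested genes. Their log2 fold changes of -3.09 to -2.19 shrank to between -1.31 and -0.73 without K-Ras replicate 2. Club cell markers summed to 768 and 3757 CPM against 829 and 657 CPM.

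The summed mesothelial markers were also higher in both K-Ras Mll4-/- samples, through 1 gene, and the list's median log2 fold change was -0.23. Of the 6 listed genes, 4 were tested, and their sum of 23.9 and 23.5 CPM in K-Ras against 126 and 226 CPM was nearly all Msln, the gene of the surface protein mesothelin, at 13.8 and 17.0 CPM against 120 and 221 CPM. Msln had a log2 fold change of 3.47 (SE 0.36, adjusted p = 0.116 by edgeR) and was called by DESeq2. Upk1b went the other way, from 212 and 156 reads to 72 and 71 reads, and Upk3b and Wt1 had between 1 and 23 reads per sample.

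The sums of the remaining lists overlapped between the groups. Immune markers summed to 814 and 323 CPM in K-Ras and 652 and 406 CPM in K-Ras Mll4-/-, with Ptprc, the gene of CD45, at 274 and 143 CPM against 269 and 171 CPM. Single immune genes went both ways at an unadjusted p under 0.05 by edgeR. Of the 12, 2 (16.7%) were higher and 1 (8.33%) lower, against 11.4% and 10.4% of all tested genes. Cd8a and Nkg7 were higher, with log2 fold changes of 1.10 and 0.89, and Itgam was lower, at -1.55. Alveolar type 2 markers summed to 18414 and 30245 CPM against 24766 and 26116 CPM, and alveolar type 1 markers to 1756 and 2384 CPM against 2117 and 2198 CPM. At the same threshold 3 of 8 alveolar type 1 genes (37.5%) were higher and 1 (12.5%) lower, against 11.4% and 10.4% of all tested genes. Akap5, Aqp5 and Rtkn2 were higher, with log2 fold changes of 1.24, 1.14 and 0.96, and Ager was lower, at -1.1. Of the 5 red blood cell genes, only Alas2 was tested, at 31.4 and 7.08 CPM in K-Ras against 14.1 and 20.1 CPM in K-Ras Mll4-/-. The globin genes Hba-a1 and Hbb-b2 had 0 reads in all samples. Except for these globin genes, no marker was at 0 in all samples.

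Set against single epithelial genes, a comparison added after the values were seen, the mitosis genes gave different pictures. The summed level per CPM of Epcam was 3.85 and 3.18 in K-Ras and 4.13 and 3.56 in K-Ras Mll4-/-, so the groups overlapped. Per CPM of Nkx2-1 it was 8.53 and 6.38 against 15.8 and 12.8, without overlap. Per CPM of the 5 epithelial markers together it was 0.477 and 0.299 against 0.268 and 0.291. Here both K-Ras Mll4-/- samples lay below both K-Ras samples, the opposite direction, though K-Ras replicate 2 nearly equalled K-Ras Mll4-/- replicate 2. Most of that marker sum was Krt18, Cdh1 and Krt8, at means of 950, 842 and 778 CPM in K-Ras Mll4-/-. Their log2 fold changes were 2.07, 1.11 and 1.41, against 0.056 for Nkx2-1, so this ratio follows mainly those 3 genes. The part of epithelial, endothelial, mesothelial or other cell content in the higher level of the mitosis genes was not tested.

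**Figure D4:**
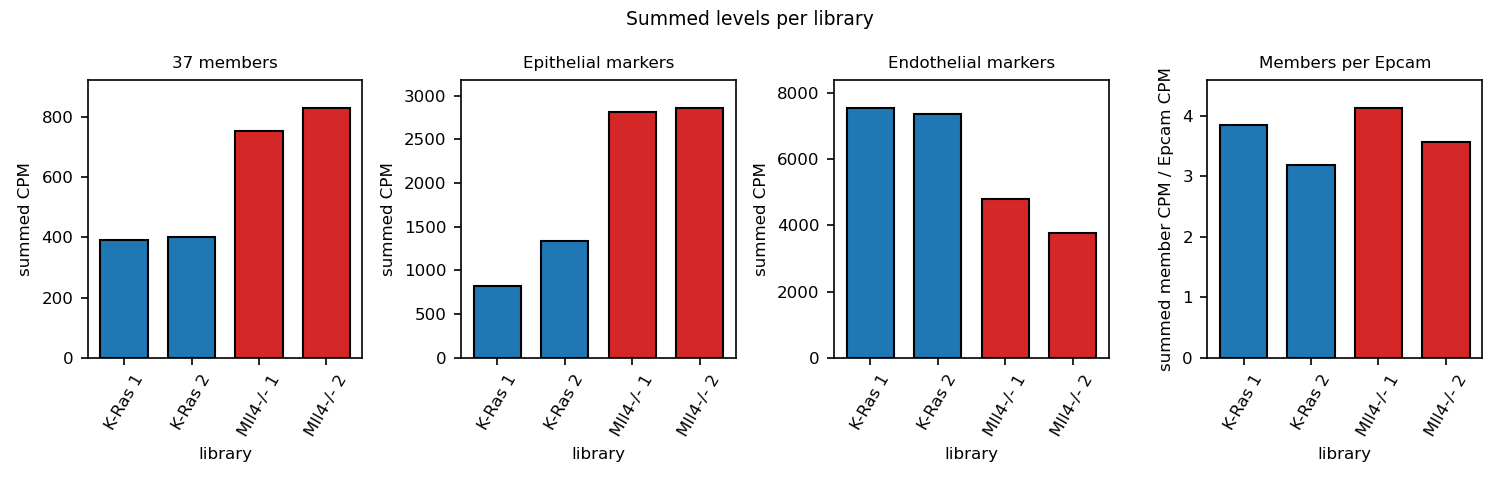
Bars give, for each library, the summed CPM of the 37 mitosis and spindle genes, of 5 epithelial markers and of 10 endothelial markers, and the summed level of the 37 genes per CPM of Epcam. Blue bars are K-Ras and red bars K-Ras Mll4-/- samples; the first 3 panels separate the groups, and the panel per Epcam does not.

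For each of the 37 genes both K-Ras Mll4-/- samples lay above both K-Ras samples. Leaving out 1 library could therefore hardly turn a direction, and only the sizes are read here. Leaving out each sample in turn gave log2 fold changes of 0.09 to 2.22 for the 37 genes, and medians of 1.07 to 1.18. The sizes moved most for genes with wide replicates or small differences: 0.61 to 1.48 for Cdc25c, 0.28 to 0.99 for Bub1b, 0.50 to 1.04 for Cenpa and 0.09 to 0.25 for Spc25. Without K-Ras replicate 2, the sample rich in airway transcripts, the median was 1.10. Within a group, the higher replicate exceeded the lower by a median of 1.19-fold in K-Ras and 1.11-fold in K-Ras Mll4-/-. Neither K-Ras sample was the higher throughout: K-Ras replicate 2 exceeded K-Ras replicate 1 for 20 of the 37 genes.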

How the data were processed

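RNA sequencing counts were analysed from 2 K-Ras and 2 K-Ras Mll4-/- lung tumour samples. The authors deposited raw read counts per gene symbol, 1 table per sample. CASAVA 1.4, STAR and HTSeq and the build mm9 are named in the submitters' processing notes. The annotation and strand setting are not given in the sources used here. Closing tallies that name no gene, including reads with more than 1 alignment (31.5% to 36.7% of the listed reads), made up 60.1% to 65.6% of the listed reads and were left out.

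Groups and replicate numbers came from sample titles. Counts were filtered with filterByExpr and scaled by TMM, and all 16001 genes were fitted with the robust quasi-likelihood test of edgeR 4.0.16 (R 4.3.3), with Benjamini-Hochberg adjustment over all of them and a threshold of 0.05. The SE is the size of the log2 fold change divided by the square root of F. CPM is TMM-normalised. DESeq2 1.42.0 and limma-voom (limma 3.58.1) were alternatives, beside other scalings, filters, a replicate block, offsets for GC content and length (mgcv 1.9.3, GENCODE M21, 15869 genes) and leaving out each sample. The fits were tested on simulated data. At the spread that edgeR estimated from these samples, DESeq2 recovered more of the changed genes than the quasi-likelihood test and also made more false calls. At a spread shared by all genes, these tests differed little.

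All 37 genes were named. Those with the largest and smallest fold change in each of 9 roles were given with adjusted p. From each other mitosis list came the 2 genes with the smallest p and the one with the lowest fold change, with Kmt2d, Foxm1, Mybl2 and Ptprc always named. The genes, lists and rules were chosen with earlier results of these data known.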

Additional observations from a re-analysis of the deposited data

How the results depend on the processing

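The log2 fold changes of the 37 genes stayed above 0 under every alternative except that of Spc25, which was -0.024 with offsets for GC content and length and -0.021 when the replicate block was added to them. Their median of 1.11 was 1.05 with upper quartile scaling, 1.06 with total counts, 1.03 with the offsets, 1.05 with the offsets and the block, and 1.07 to 1.18 when single samples were left out. Of the 37, 0 were called in the main comparison and 24 with DESeq2, and leaving out single samples gave 0 to 1, the 1 being Cdk1 without K-Ras replicate 1. Across all genes, 6 calls became 44 without a count filter, 1601 with DESeq2 and 0 with limma-voom (3 of the 4 fits without 1 sample gave 0, and without K-Ras replicate 1 the fit gave 528). The 40 other mitosis genes at an unadjusted p under 0.05 became 9 to 34 when single samples were left out. Among other named genes, the log2 fold change of Nek2 (-0.38) spanned -0.96 to 0.58 over the fits that drop 1 sample, turning without K-Ras replicate 2, and that of Nsl1 (-0.26) -0.55 to 0.079, turning without K-Ras replicate 1. Nkx2-1 (0.056) spanned -0.19 to 0.29 and Ptprc (0.075) -0.33 to 0.63, and with the offsets Ptprc was at -0.0097. Each of these 2 turned in a pair of the 4 fits without 1 sample: Nkx2-1 without K-Ras replicate 1 and without K-Ras Mll4-/- replicate 2, Ptprc without K-Ras replicate 2 and without K-Ras Mll4-/- replicate 1. The labels number the samples 1 and 2 in both groups but do not say what a number shares, and deviations of same-numbered samples correlated at 0.21 across genes. With the replicate block, 217 genes were called, 2 of them among the 37, Kif23 (adjusted p = 0.0488) and Anln (adjusted p = 0.0421), and with block and offsets together 113 and 0. The lowest count of any of the 37 genes in a sample was 21 reads.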
